A study of Mus musculus with 20 samples.

Results

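Blood vessels recruit leukocytes through surface molecules of their endothelium, and 8 genes for such molecules were followed here in tumour vessels. They were 2 selectins (Selp and Sele), 4 adhesion molecules with immunoglobulin domains (Vcam1, Icam1, Icam2 and Alcam), the sialomucin Cd34 and the atypical chemokine receptor Ackr1. The 8 were taken by symbol, as a set named by function, from the 46983 gene identifiers in each table. Each symbol matched 1 identifier, and all 8 were among the 14875 genes that passed the filter on low counts, although Sele and Alcam did so near the detection floor.

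In recruitment, P-selectin and E-selectin slow passing leukocytes by binding fucosylated and sialylated ligands, after which leukocyte integrins bind ICAM and VCAM molecules and the cell stops. P-selectin protein is also stored in endothelial granules and can be brought to the surface without new RNA, whereas E-selectin is generally made on demand after inflammatory signals. Ackr1, the Duffy chemokine receptor, is typical of venules, the vessels at which most leukocytes leave the blood, and Cd34 is carried by most vascular endothelium.

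The 20 RNA-seq libraries came from CD31+ cells sorted out of tumours of the mouse mammary cancer line E0771, which had been grown orthotopically (in mammary fat) in C57BL/6J hosts and were resected at a volume of 500.0 mm3. Hosts had 6 backgrounds. Those that the submitters class as competent for CD4+ T cells were wild type (WT, 4 libraries), CD8KO (3) and Tie2Cre (3), the last carrying Cre recombinase under the Tie2 promoter, which is active in endothelial and in blood-forming cells. Those classed as deficient were CD4KO (3), TCRKO (3) and Tie2Cre;H2Ab fl/fl (4, written Tie2Cre_H2Abf below), in which that Cre acts on a floxed class II gene, so that the deletion need not be limited to endothelium. The labels state neither age nor the exact alleles. Each library has its own number, beginning with 95 for Tie2Cre and Tie2Cre_H2Abf (series 95xx) and with 97 for the other 4 backgrounds (series 97xx). Nothing states that the libraries are separate animals, so the p-values measure the spread between these libraries, which may in part be technical.

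Levels are given as CPM, the share of a library's counts after scaling library sizes by TMM factors, and as TPM, which also divides by transcript length, where genes are compared with each other. Totals ranged from 1543880 to 11478932 counts, of which 18.4% to 87.2% were abundant RNA such as ribosomal and mitochondrial transcripts, so 3 counts were worth between 0.128 and 2.45 CPM. In WT_9771 and Tie2Cre_9501, satellite-like repeats took 47.1% and 19.7% of the counts. CD8KO_9752 was also unlike the others, with the lowest share of abundant RNA (18.4%), the highest share of protein-coding counts (79.8%) and the largest TMM factor (3.69). Endothelial markers were high throughout. Pecam1, which encodes CD31, lay at 433 to 1372 CPM and Cdh5, which encodes VE-cadherin, at 669.9 to 1902 CPM. All 12 endothelial markers had counts in every background, whereas 8 T cell genes summed to 0 to 8.33 CPM and 8 platelet genes to 0 to 20.4 CPM. The leukocyte gene Ptprc was present in every library, at 1.875 to 69.4 CPM. H2-Ab1, a class II gene, had 0.709 to 6.35 CPM in Tie2Cre_H2Abf and 25.3 to 183 CPM elsewhere. Cd8a was not low in the libraries labelled CD8KO, where it had 38.9 to 69.4 CPM, against at most 2.93 CPM in any other library. Cd4 was not low in the libraries labelled CD4KO either (4.21 to 15.7 CPM, against 0 to 15.5 CPM elsewhere). The labels do not state which part of each gene was deleted, so these transcripts do not check those labels, and Trac, Trbc1 and Trbc2 were too near 0 in every background to check TCRKO.

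Ranked by TPM, Cd34 was the highest of the 8 in 19 of 20 libraries, with a median of 190 TPM and a median of 55.1% of the summed TPM of the set. Ackr1 (median 34.1 TPM) and Selp (32.6 TPM) came next, followed by Icam2 (23.9 TPM), Icam1 (18.7 TPM) and Vcam1 (18.2 TPM). Alcam and Sele came last, with medians of 1.47 and 1.42 TPM. Sele had no count in 3 libraries, and Sele and Alcam each had 3 counts or fewer in 5.

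**Figure D1:**
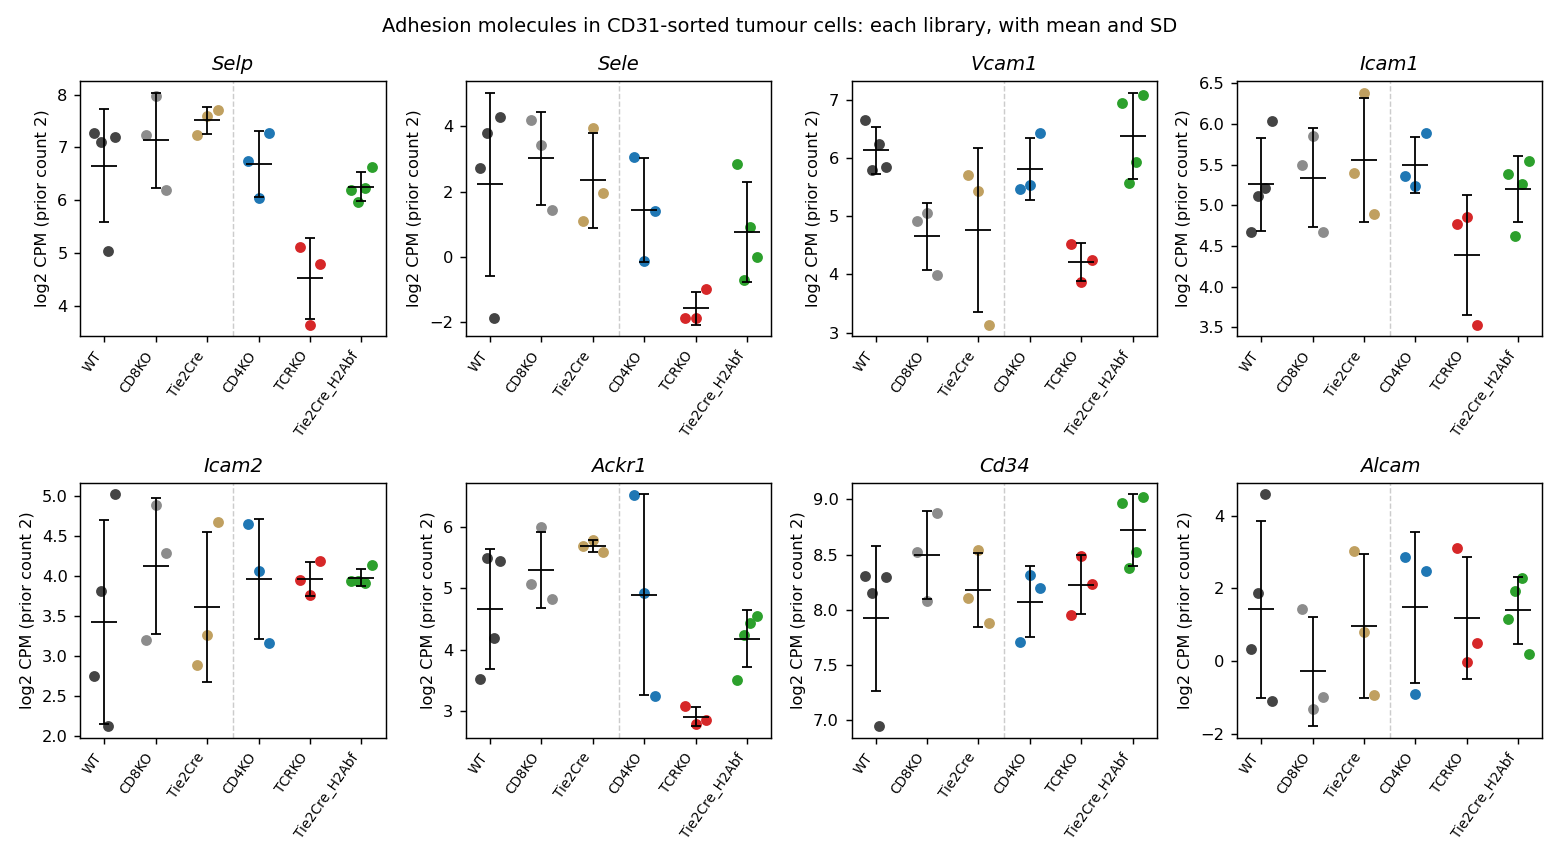
Level of each of the 8 genes in each of the 20 libraries (points) on a log2 CPM scale with a prior count of 2, by host background, with the mean and SD of each background as a bar; the dashed line divides CD4-competent (left) from CD4-deficient (right) hosts. The 3 TCRKO libraries are lowest on average for Selp, Sele, Vcam1, Icam1 and Ackr1, while Icam2, Cd34 and Alcam do not show this.

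Across the set, TCRKO had the lowest mean level of Selp, Sele, Vcam1, Icam1 and Ackr1 of the 6 backgrounds, with fitted levels of Selp, Vcam1 and Ackr1 at 0.209, 0.259 and 0.248 of those in WT. None of these differences from WT passed the threshold in the edgeR quasi-likelihood test, in which p-values were adjusted by Benjamini-Hochberg over all 14875 genes (threshold 0.05). In the test for any difference among the 6 backgrounds, 0 of 8 members passed against 0.0605% of all genes, and 4 of 8 (Selp, Sele, Vcam1 and Ackr1) had an unadjusted p under 0.05 against 9.34% of all genes. Their edgeR adjusted p-values were 0.180 for Selp, 0.306 for Vcam1, 0.464 for Ackr1 and 0.464 for Sele. With DESeq2, 3 members passed in that test (Selp, Vcam1 and Ackr1, adjusted p = 3.42e-05, 0.00923 and 0.0231), of 262 genes called in all, and with limma-voom none did. The call on these members thus differed between the 3 tools.

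Selp encodes P-selectin and lies on mouse chromosome 1 near Sele: in GRCm38, Sele is at chr1:164048234-164057677 and Selp at chr1:164115264-164150026, both on the plus strand. The 250 bases before the RefSeq start of each gene (GRCm38.p6, plus strand) are shown because the levels of the 2 selectin genes had the highest correlation of any pair of members, and that of Icam1 (chr9, plus strand) because it holds motifs of the same kind. Matches to GGNNNTTCC, a loose form of the site bound by NF-kappaB factors, and to TATAAA are in capitals.
Selp, chr1:164115014-164115263: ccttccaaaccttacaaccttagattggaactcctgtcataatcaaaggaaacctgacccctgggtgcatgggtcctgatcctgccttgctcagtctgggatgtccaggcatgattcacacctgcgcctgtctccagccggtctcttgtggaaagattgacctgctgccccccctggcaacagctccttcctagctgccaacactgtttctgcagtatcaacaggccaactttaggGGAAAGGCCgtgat
Sele, chr1:164047984-164048233: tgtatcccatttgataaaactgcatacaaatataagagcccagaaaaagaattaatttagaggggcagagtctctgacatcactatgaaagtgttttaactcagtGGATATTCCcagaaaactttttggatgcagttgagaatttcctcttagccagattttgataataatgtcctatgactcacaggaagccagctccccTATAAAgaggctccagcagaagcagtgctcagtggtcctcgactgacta
Icam1, chr9:21015690-21015939: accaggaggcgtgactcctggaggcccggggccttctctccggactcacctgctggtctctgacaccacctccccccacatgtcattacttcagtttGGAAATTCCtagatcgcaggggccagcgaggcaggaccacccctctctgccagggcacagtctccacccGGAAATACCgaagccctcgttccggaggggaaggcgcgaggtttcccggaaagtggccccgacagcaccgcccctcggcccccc
On either strand, GGNNNTTCC was found in 15.7% of the 32851 RefSeq promoter windows of this length. In Sele it lay 145 to 137 bases before the start as GGATATTCC, and in Icam1 at 153 to 145 bases as GGAAATTCC, which reads as a match on both strands, and at 84 to 76 bases as GGAAATACC, on the opposite strand. In Selp the match, GGAAAGGCC, was on the opposite strand at 14 to 6 bases. Only the Sele window held TATAAA, 49 to 44 bases before the start, among the 6 members with a window, against 12.4% of all windows. Ackr1 also held GGNNNTTCC, and its match fitted the narrower GGGNNTTCC, found in 4.98% of windows. Promoters of Vcam1 and Icam2 were not analysed here. A match describes the letters and not binding.

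Selp in CD4-competent hosts was 155, 137, 32.7 and 147 CPM in WT, 151, 253 and 72.9 CPM in libraries labelled CD8KO, and 150.0, 194 and 209.7 CPM in Tie2Cre. In CD4-deficient hosts it was 107, 65.4 and 154 CPM in libraries labelled CD4KO, 34.4, 12.2 and 27.4 CPM in TCRKO, and 72.7, 62.1, 74.6 and 99.1 CPM in Tie2Cre_H2Abf. The TCRKO libraries lay below every library of the other backgrounds apart from WT_9771, whose 32.7 CPM fell within their range. The 4 Tie2Cre_H2Abf libraries all lay below the 3 Tie2Cre libraries. In order of mean level, TCRKO (24.7 ± 11.3 CPM, SD, n = 3) stood apart from the next background, Tie2Cre_H2Abf (77.1 ± 15.7, n = 4), and the other neighbours in the order overlapped: libraries labelled CD4KO (109 ± 44.3, n = 3), WT (118 ± 57.2, n = 4), libraries labelled CD8KO (159 ± 90.2, n = 3) and Tie2Cre (185 ± 31.0, n = 3).

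Because the kit does not mark strand, reads from Selp cannot be told apart from those of its antisense partners Gm16548 and Gm16587, whose exons share 438 and 186 bases with it, and the same holds for 61 bases of Vcam1 with Gm43109 and 148 bases of Cd34 with Gm16897.

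Against WT, Selp was 4.80-fold lower in TCRKO (log2 change -2.26 ± 0.52 SE, edgeR adjusted p = 0.145). Against the libraries labelled CD4KO the log2 change was -2.14 ± 0.53 (edgeR adjusted p = 0.357), and against those labelled CD8KO it was -2.69 ± 0.54 (edgeR adjusted p = 0.139). These 3 comparisons share the TCRKO libraries, so they are not independent. DESeq2 called Selp in all of them, with adjusted p-values of 0.000154 against WT, 0.00229 against libraries labelled CD4KO and 3.74e-05 against libraries labelled CD8KO. Without WT_9771 the Selp change against WT was -2.57 ± 0.45 and passed in edgeR (adjusted p = 0.0165). Tie2Cre_H2Abf against Tie2Cre, the closest matched pair of backgrounds, gave a Selp level 2.40-fold lower (log2 change -1.26 ± 0.47, edgeR adjusted p = 0.575), which did not pass. In libraries labelled CD4KO the Selp level was close to that of WT (log2 change -0.12 ± 0.48, 95% interval -1.05 to 0.82), and this sign turned when libraries were scaled to endothelial markers (0.014). In libraries labelled CD8KO and Tie2Cre the log2 changes against WT were 0.43 ± 0.47 and 0.64 ± 0.47.

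Sele, which encodes E-selectin, was the scarcest of the set with Alcam. In CPM it was 6.27, 13.5, 0 and 19.2 in WT, 18.1, 10.6 and 2.42 in libraries labelled CD8KO, and 1.88, 15.3 and 3.64 in Tie2Cre. It was 8.05, 0.637 and 2.36 in libraries labelled CD4KO, 6.88, 0.337, 1.60 and 0.721 in Tie2Cre_H2Abf, and 0, 0 and 0.227 in TCRKO. The TCRKO libraries were at or under the detection floor, and WT_9771, in which 3 counts are 2.45 CPM, also had none. As summed counts, TCRKO had 1 Sele count in 3 libraries against 204 in the 4 WT libraries, a ratio per scaled library size of 0.00404 (exact 95% interval 0.000102 to 0.0228). The ratio was 0.00470 (0.000119 to 0.0264) against libraries labelled CD8KO with 396 counts and 0.0167 (0.000418 to 0.0962) against libraries labelled CD4KO with 74. These intervals cover counting error only, and molecules copied by PCR are not independent. In Tie2Cre_H2Abf against Tie2Cre the fitted log2 change was -1.56 ± 1.14 (edgeR adjusted p = 0.711), and it ranged from -2.97 without Tie2Cre_H2Abf_9576 to -0.22 without Tie2Cre_9502, with the highest Tie2Cre_H2Abf library above 2 of the 3 Tie2Cre libraries.

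Ackr1 binds many inflammatory chemokines without signalling and marks venules; it lies at chr1:173331886-173333750 (GRCm38, minus strand). Its level was 11.2, 44.8, 18.0 and 43.4 CPM in WT, 33.3, 63.3 and 28.2 CPM in libraries labelled CD8KO, and 51.3, 54.9 and 47.8 CPM in Tie2Cre. It was 90.9, 30.1 and 9.21 CPM in libraries labelled CD4KO, 8.22, 6.63 and 7.02 CPM in TCRKO, and 11.1, 18.7, 21.3 and 23.1 CPM in Tie2Cre_H2Abf. All 3 TCRKO libraries lay below every other library, and all 4 Tie2Cre_H2Abf libraries lay below the 3 Tie2Cre libraries, while the libraries labelled CD4KO held both the highest value of all and the lowest outside TCRKO. The mean of TCRKO was 7.29 ± 0.83 CPM (SD, n = 3), that of Tie2Cre_H2Abf 18.6 ± 5.27 (n = 4), that of WT 29.4 ± 17.3 (n = 4) and that of Tie2Cre 51.3 ± 3.53 (n = 3); no neighbours in the order above TCRKO were separate.

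Ackr1 was 4.04-fold lower in TCRKO than in WT (log2 change -2.01 ± 0.63, edgeR adjusted p = 0.406). Against libraries labelled CD4KO the log2 change was -2.57 ± 0.66 (edgeR adjusted p = 0.367, DESeq2 adjusted p = 0.0108), and without CD4KO_9768 it was -1.43. Against libraries labelled CD8KO it was -2.51 ± 0.66 (edgeR adjusted p = 0.690). In Tie2Cre_H2Abf it was 2.76-fold lower than in Tie2Cre (log2 change -1.47 ± 0.58, edgeR adjusted p = 0.575). The changes against WT were 0.55 ± 0.58 in libraries labelled CD4KO, which turned to -0.57 without CD4KO_9768, 0.50 ± 0.58 in libraries labelled CD8KO and 0.80 ± 0.58 in Tie2Cre, where all 3 libraries lay above the 4 WT libraries.

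The annotated exons of Ackr1 share 361 bases, on the same strand, with those of the neighbouring Cadm3, a cell adhesion molecule gene, and Ackr1 counts were whole numbers in 15 of 20 libraries (within 0.005). Reads in the shared part cannot be assigned to 1 of the genes with certainty, so the Ackr1 level is uncertain to that extent. Cadm3 itself was at 0.227, 0.613 and 1.06 CPM in TCRKO and at 2.45 to 30.7 CPM in WT. It was 1 of the 4 genes that passed in TCRKO against WT (log2 change -4.65 ± 0.84, edgeR adjusted p = 0.0339), and it also passed against libraries labelled CD4KO (-5.00 ± 0.87, edgeR adjusted p = 0.0372). In Tie2Cre_H2Abf Cadm3 lay at 2.82 to 7.42 CPM against 31.7 to 53.9 CPM in Tie2Cre, which did not pass (-2.78 ± 0.68, edgeR adjusted p = 0.423).

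Vcam1 encodes the ligand of the integrin VLA-4 and lies at chr3:116109949-116129688 (GRCm38, minus strand). It was 100.4, 55.4, 75.2 and 57.0 CPM in WT, 30.0, 33.0 and 15.7 CPM in libraries labelled CD8KO, and 52.0, 42.9 and 8.53 CPM in Tie2Cre. It was 44.2, 46.4 and 85.7 CPM in libraries labelled CD4KO, 22.7, 14.3 and 18.8 CPM in TCRKO, and 123, 47.2, 60.8 and 135 CPM in Tie2Cre_H2Abf. Its order thus differed from that of Selp and Ackr1: TCRKO was low, the libraries labelled CD8KO were nearly as low, and the highest mean was that of Tie2Cre_H2Abf (91.3 ± 43.7 CPM, SD, n = 4), which exceeded WT (72.0 ± 21.0, n = 4) by less than its spread. All WT libraries lay above all TCRKO, all libraries labelled CD8KO and all Tie2Cre libraries.

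Vcam1 was 3.87-fold lower in TCRKO than in WT (log2 change -1.95 ± 0.54, edgeR adjusted p = 0.307, DESeq2 adjusted p = 0.0114) and 2.74-fold lower in libraries labelled CD8KO than in WT (-1.45 ± 0.53, edgeR adjusted p = 0.465). Tie2Cre against WT gave -1.07 ± 0.52 and libraries labelled CD4KO against WT -0.29 ± 0.51. TCRKO against libraries labelled CD8KO gave -0.50 ± 0.55 (95% interval -1.57 to 0.57), a sign that turned when libraries were scaled to endothelial markers (0.20), and TCRKO against libraries labelled CD4KO -1.66 ± 0.56 (edgeR adjusted p = 0.749). Unlike Selp and Ackr1, Vcam1 was higher in Tie2Cre_H2Abf than in Tie2Cre, 2.66-fold (log2 change 1.41 ± 0.53, edgeR adjusted p = 0.575), though the ranges overlapped. The 2 contrasts were then compared in 1 model, as the change in Tie2Cre_H2Abf against Tie2Cre minus that in TCRKO against WT. This difference of log2 changes was 3.36 ± 0.76 for Vcam1 (edgeR unadjusted p = 0.000154, adjusted p = 0.212; DESeq2 adjusted p = 0.00541), 1.00 ± 0.68 for Selp and 0.55 ± 0.83 for Ackr1. Scaled to endothelial markers it was 2.51 for Vcam1, -0.02 for Selp and -0.33 for Ackr1. In this test 0 of 8 members passed in edgeR against 0.0% of all genes and 1 in DESeq2, which called 64 of all 14875 genes, and 2 of 8 (Vcam1 and Sele) had an unadjusted p under 0.05, both in the higher direction, against 3.03% of genes in that direction.

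**Figure D2:**
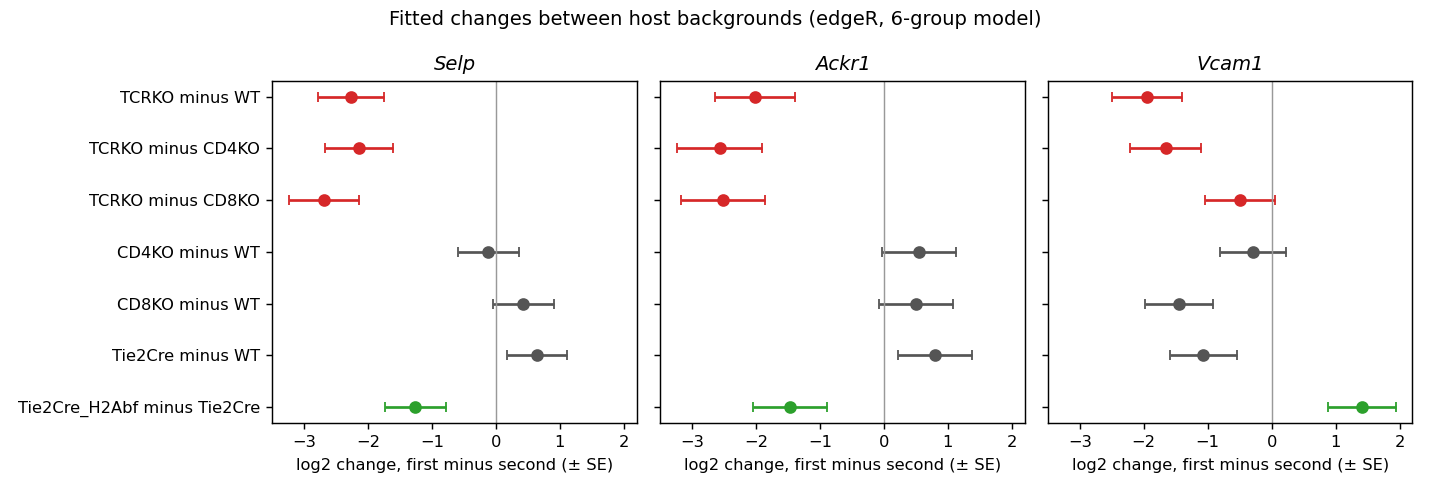
Fitted log2 change (points) with its standard error (bars) for Selp, Ackr1 and Vcam1 in 7 comparisons between host backgrounds, first named minus second; red marks comparisons of TCRKO and green that of Tie2Cre_H2Abf. For Tie2Cre_H2Abf minus Tie2Cre, Selp and Ackr1 lie at -1.26 and -1.47 and Vcam1 at 1.41.

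Icam1, which encodes the ligand of the integrins LFA-1 and Mac-1 (chr9:21015985-21028817, GRCm38, plus strand), varied less. It was 25.2, 34.5, 36.8 and 65.2 CPM in WT, 44.9, 57.7 and 25.2 CPM in libraries labelled CD8KO, and 41.8, 83.4 and 29.5 CPM in Tie2Cre. It was 40.7, 37.5 and 58.9 CPM in libraries labelled CD4KO, 27.1, 28.8 and 11.3 CPM in TCRKO, and 41.6, 24.3, 38.3 and 46.3 CPM in Tie2Cre_H2Abf. TCRKO again had the lowest mean (22.4 ± 9.63 CPM, SD, n = 3), but its range overlapped that of WT, and it was separate from Tie2Cre and from libraries labelled CD4KO only. The log2 changes in TCRKO were -0.85 ± 0.48 against WT, -1.02 ± 0.51 against libraries labelled CD4KO and -0.92 ± 0.51 against libraries labelled CD8KO, with edgeR adjusted p-values of 0.606, 0.749 and 0.873. In Tie2Cre_H2Abf against Tie2Cre the change was -0.46 ± 0.47, and without Tie2Cre_9502 it was 0.11.

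Icam2, a ligand of LFA-1 that endothelium carries constitutively (chr11:106377656-106388075, GRCm38, minus strand), showed no detectable order among backgrounds. Its group means ran from 13.9 ± 9.79 CPM in Tie2Cre to 19.1 ± 10.1 CPM in libraries labelled CD8KO (SD, n = 3 each), and every pair of neighbours overlapped. In TCRKO it was 15.1, 13.3 and 17.9 CPM, inside the WT range of 4.09 to 32.1 CPM, and the log2 change against WT was 0.10 ± 0.64 (95% interval -1.14 to 1.35), which turned to -0.18 without WT_9771 and also changed sign without WT_9748 or TCRKO_9767. A change of 2-fold in either direction therefore lies within the interval.

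Cd34, a sialomucin of the endothelial surface (chr1:194938819-194961279, GRCm38, plus strand), was 315, 283, 123 and 315 CPM in WT and 247, 359 and 301 CPM in TCRKO. WT_9771 was the low one, and the other libraries of the 2 backgrounds overlapped. The log2 change in TCRKO against WT was 0.22 ± 0.34 (95% interval -0.45 to 0.90), and without WT_9771 it was -0.015. The highest mean was that of Tie2Cre_H2Abf (430.2 ± 94.8 CPM, SD, n = 4), at a log2 change of 0.55 ± 0.35 against Tie2Cre (294 ± 70.2 CPM, n = 3, edgeR adjusted p = 0.663). Both Cd34 changes depended on the scaling. Scaled to endothelial markers, Cd34 was at 0.65 ± 0.26 in TCRKO against WT (edgeR adjusted p = 0.399) and at 0.063 ± 0.26 in Tie2Cre_H2Abf against Tie2Cre.

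Alcam, an adhesion molecule that binds Cd6 on T cells (chr16:52248996-52454074, GRCm38, minus strand), was too scarce for a comparison. It ranged from 0.128 to 23.7 CPM over all libraries, with a median of 1.70 CPM, and its highest CPM, in WT_9771, rested on 29 counts. Its libraries differed within every background, for example 8.34, 0.710 and 1.13 CPM in TCRKO.

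Counted over the 8 members, TCRKO against WT gave 0 calls in edgeR (0.0269% of all genes were called), 3 in DESeq2 (Selp, Sele and Vcam1; 172 of all 14875 genes) and 0 in limma-voom. At an unadjusted p under 0.05, 4 of 8 (Selp, Sele, Vcam1 and Ackr1) were lower, against 4.65% of all genes. The groups did not overlap, with TCRKO lower, for Vcam1 and Ackr1, 2 of 8 members against 2.1% of all genes. The median log2 change was -1.46 over the 8 members and -0.20 over all genes tested. When libraries were instead scaled to the summed counts of 12 endothelial markers, the median of all genes moved to 0.09, and Selp, Vcam1 and Ackr1 were at -1.74, -1.70 and -1.65.

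TCRKO against libraries labelled CD4KO gave 0 calls in edgeR (0.0134% of all genes), 3 in DESeq2 (Selp, Sele and Ackr1; 102 of all 14875 genes) and 0 in limma-voom. Here 4 of 8 members had an unadjusted p under 0.05 and were lower (Selp, Sele, Vcam1 and Ackr1), against 3.95% of all genes, and 5 of 8, these and Icam1, were lower without overlap, against 5.61%. TCRKO against libraries labelled CD8KO gave 0 calls in edgeR (0.0%), 2 in DESeq2 and 2 in limma-voom (Selp and Sele each time), tools that called 41 and 36 of all 14875 genes. In that comparison 3 of 8 (Selp, Sele and Ackr1) were lower at an unadjusted p under 0.05 against 2.05% of all genes, and the same 3 did not overlap, against 6.73%.

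Tie2Cre_H2Abf against Tie2Cre gave 0 calls among the members in edgeR (0.0202% of all genes), DESeq2 and limma-voom. At an unadjusted p under 0.05, Selp and Ackr1 were lower (2 of 8, against 5.86% of all genes) and Vcam1 was higher (1 of 8, against 2.69%), and Selp and Ackr1 did not overlap (against 3.76%). The members went in both directions, with a median log2 change of -0.32 against -0.24 over all genes. Scaled to endothelial markers, the median of all genes was -0.73, with Selp at -1.76, Ackr1 at -1.98 and Vcam1 at 0.81.

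The single knockouts (as labelled) and the Cre control against WT shared the 4 WT libraries. Libraries labelled CD4KO against WT gave 0 of 8 calls by edgeR (0.0%), DESeq2 and limma-voom, and 0 of 8 at an unadjusted p under 0.05 in edgeR, against 8.59% of all genes. Libraries labelled CD8KO against WT gave 0 calls in these tools (0.0% in edgeR) and 1 of 8 lower at an unadjusted p under 0.05, Vcam1, against 7.97% of all genes; Vcam1 was also the 1 of 8 lower without overlap, against 1.47%. Tie2Cre against WT gave 0 calls (0.0%) and 0 of 8 at an unadjusted p under 0.05 (6.86% of genes), with Vcam1 lower without overlap (1.34%) and Ackr1 higher without overlap (2.86%). This last comparison also sets series 95xx against series 97xx, so background and number series cannot be told apart in it.

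By the submitters' own division, 10 CD4-deficient libraries were compared with 10 CD4-competent ones. The models had no term for host background, so libraries of the same background were treated as independent replicates of CD4 status. Their p-values therefore do not measure the spread between backgrounds. Selp ranged from 12.2 to 154 CPM with a median of 69.0 in deficient hosts and from 32.7 to 253 CPM with a median of 151 in competent hosts, a 2.12-fold lower level (log2 change -1.08 ± 0.35, edgeR adjusted p = 0.396). Sele ranged from 0 to 8.05 CPM with a median of 0.679 against 0 to 19.2 CPM with a median of 8.43 (log2 change -2.15 ± 0.79, edgeR adjusted p = 0.510). Ackr1 had medians of 14.9 and 44.1 CPM (-0.82 ± 0.42) and Vcam1 of 46.8 and 47.4 CPM (0.35 ± 0.40). All of these ranges overlapped. In edgeR 0 of 8 members were called (0.0% of all genes), in DESeq2 0 and in limma-voom 1 (Sele, adjusted p = 0.0444, of 7 genes called in all); 2 of 8, Selp and Sele, were lower at an unadjusted p under 0.05 against 5.37% of all genes.

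The backgrounds within the division were not alike, and the number series were therefore also fitted alone. Series 95xx holds only Tie2Cre and Tie2Cre_H2Abf, so its fit repeats the comparison of those backgrounds given above, on the same libraries. In series 95xx the deficient-minus-competent log2 change was -1.33 ± 0.26 for Selp, -1.54 ± 0.36 for Ackr1 and 1.32 ± 0.59 for Vcam1. In series 97xx it was -1.02 ± 0.49 for Selp, -0.44 ± 0.59 for Ackr1 and -0.44 ± 0.45 for Vcam1. Selp kept its sign in both series, whereas the sign for Vcam1 differed between them, and that difference between series was not tested. The Selp value of series 97xx (edgeR unadjusted p = 0.0519, adjusted p = 0.999) joins unlike deficient backgrounds. Against WT, Selp was at -2.26 in TCRKO and at -0.12 in libraries labelled CD4KO.

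Across the 20 libraries, Selp and Sele had the highest correlation of any pair of members (Pearson's r of log2 CPM 0.82), followed by Selp and Ackr1 (0.69), Sele and Ackr1 (0.64) and Selp and Icam1 (0.59). Vcam1 was nearly unrelated to Ackr1 (-0.04) and weakly related to Selp (0.23). These values describe 20 libraries that share backgrounds, scaling and depth, and without the 2 satellite-rich libraries the first 3 were 0.82, 0.69 and 0.68.

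**Figure D3:**
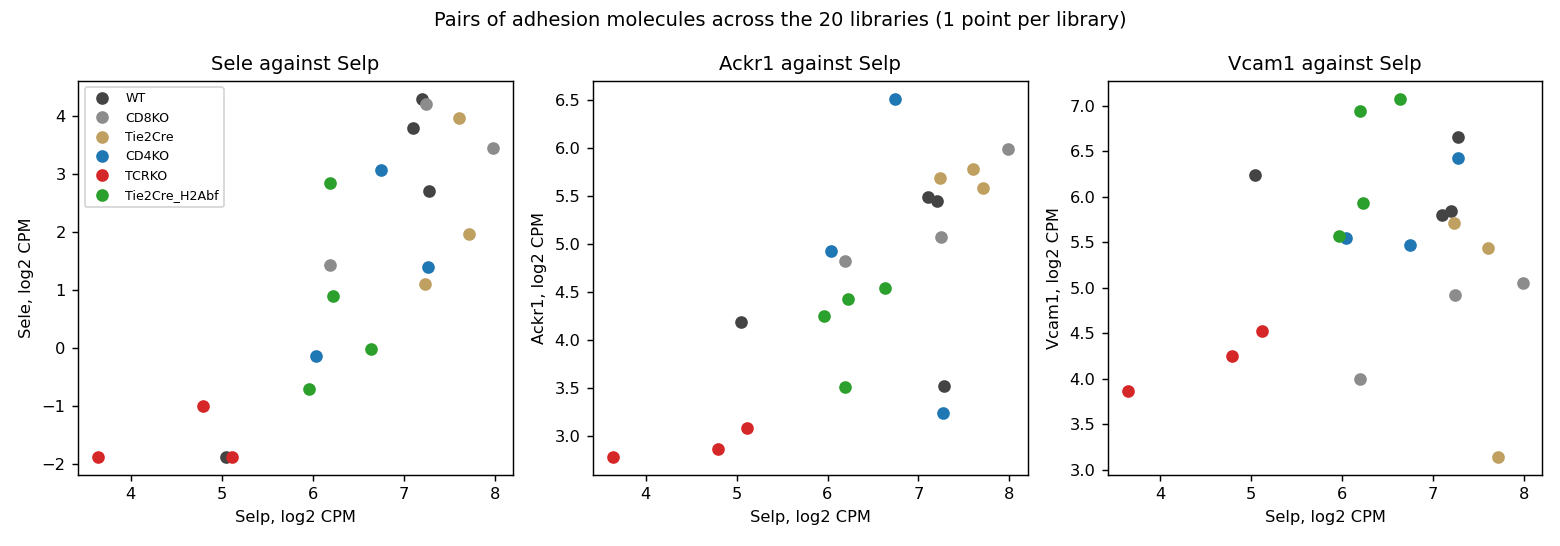
Sele, Ackr1 and Vcam1 (vertical axes) against Selp (horizontal axis), as log2 CPM with a prior count of 2, with 1 point for each of the 20 libraries, coloured by host background. TCRKO points lie low on both axes in each panel, with 1 Tie2Cre library lower still for Vcam1, and the Tie2Cre_H2Abf points reach the highest Vcam1 values at middle Selp values.

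**Figure D4:**
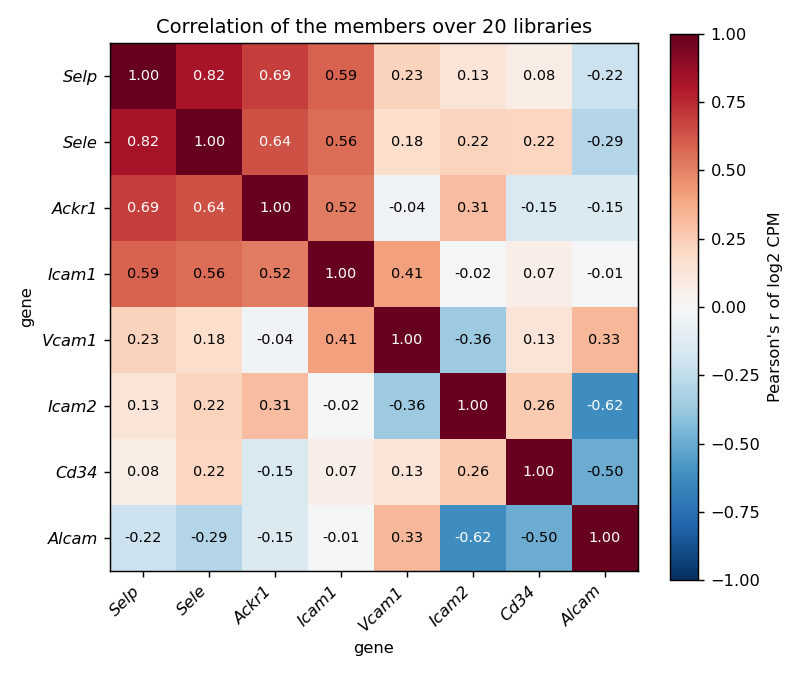
Pearson's r of log2 CPM between each pair of the 8 members over the 20 libraries, from -1 (blue) to 1 (red). Selp, Sele, Ackr1 and Icam1 form a block with values from 0.52 to 0.82, while Vcam1 reaches 0.41 with Icam1 and -0.04 with Ackr1.

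Among 4182 genes with a mean of at least 10 CPM, those most like each member over the 20 libraries were listed. For Selp they were Il6st, which encodes the shared receptor chain gp130 (r = 0.88), Col15a1, a basement membrane collagen (0.82), and Atp2b4, a calcium pump (0.82). For Vcam1 they were Wars, the tryptophanyl-tRNA synthetase (0.87), Gbp6, an interferon-inducible GTPase (0.78), and the serpin Serpina3g (0.76). For Ackr1 the list was led by the overlapping Cadm3 (0.87), followed by Bgn (0.83) and Tmem252 (0.83). Icam1 was most like Itgb4 (0.79), Icam2 like Ubb (0.88) and Cd34 like Elk3 (0.86, or 0.74 without the 2 satellite-rich libraries). Selp, Vcam1 and Ackr1 thus had different nearest genes.

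Of 24 genes for receptors and factors known to induce adhesion molecules, 0 passed in edgeR in TCRKO against WT, 4 lower in DESeq2 (of 172 genes called in all) and 1 lower in limma-voom (Il6st, of 4 in all). At an unadjusted p under 0.05, 4 were lower and 1 higher, against 4.65% and 3.99% of all genes. The lower ones were Il6st (log2 change -1.82 ± 0.37), Il4ra, a chain of the interleukin 4 receptor (-1.37 ± 0.40), Il1r1, the interleukin 1 receptor (-2.34 ± 0.74), and Nfkb1 (-1.28 ± 0.48). The median of the list was -0.51 against -0.20 over all genes. In Tie2Cre_H2Abf against Tie2Cre 0 of 24 passed in edgeR, 2 in DESeq2 (Il6st and Osmr, both lower, of 53 genes called in all) and 1 in limma-voom (Il6st), and the list median was 0.21 against -0.24. Il6st was at -1.45 ± 0.35 and Osmr, the oncostatin M receptor, at -1.61 ± 0.48. In the test for any difference among backgrounds, Il6st was the 1 gene of this list that passed in edgeR.

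Genes of the later steps of emigration were measured in the same way. Of 17 transmigration and junction genes, 0 passed in edgeR in TCRKO against WT and 2 in DESeq2 (Vwf and Cx3cl1, both lower, of 172 genes called in all). At an unadjusted p under 0.05, 3 were lower and 0 higher, against 4.65% and 3.99% of all genes. The 3 lower ones were Vwf, the clotting factor stored with P-selectin (log2 change -2.005 ± 0.50), the adhesive chemokine Cx3cl1 (-2.09 ± 0.61) and Jam2 (-1.09 ± 0.45). The list median of -0.22 was near that of all genes. In Tie2Cre_H2Abf against Tie2Cre 0 of 17 passed in edgeR and DESeq2, and the list median was 0.41, with Vwf at 0.62 ± 0.47. Of 14 genes for selectin ligands and their synthesis, 0 passed in either comparison by edgeR, DESeq2 or limma-voom, with medians of 0.12 and -0.04. At an unadjusted p under 0.05, 1 was higher in TCRKO than in WT (St3gal6, 1.42 ± 0.53), against 3.99% of all genes. Of 12 genes for leukocyte counter-receptors, 0 passed by any of the 3 tools in these comparisons, with medians of -0.02 and 0.18.

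Markers of vessel types and of other cells moved in part with the same libraries. The lists share genes, so their counts are not independent. Of the venous markers, Il6st and Il1r1 are also among the inducers above, and Vwf is also among the transmigration and junction genes. Of 8 venous markers, 4 were lower and 0 higher in TCRKO than in WT at an unadjusted p under 0.05 (Il6st, Vwf, Il1r1 and Lrg1), against 4.65% lower and 3.99% higher over all genes; 0 passed in edgeR, 3 in DESeq2 and 1 in limma-voom. Their summed level was 242 to 454 CPM in TCRKO and 581 to 1602 CPM in WT, without overlap. In Tie2Cre_H2Abf it was 827 to 1345 CPM against 1040 to 1694 CPM in Tie2Cre, with overlap. In that comparison 2 of 8 venous markers were lower (Il6st and Lrg1) and 0 higher at an unadjusted p under 0.05. All genes gave 5.86% and 2.69%, and edgeR called 0 of the 8. The median log2 change of the list was -1.07 against -0.24 over all genes. Of the 8, 5 were below 0, while Vwf was at 0.62 ± 0.47. Of 9 arterial markers, 3 were lower and 0 higher in TCRKO than in WT by the same rule, among them Efnb2 (log2 change -1.21 ± 0.51) and Gja5 (-1.30 ± 0.63), and 0 passed in edgeR, DESeq2 or limma-voom. In Tie2Cre_H2Abf against Tie2Cre, where Vcam1 was higher, 3 arterial markers were higher and 1 lower (against 2.69% and 5.86% of all genes), the higher ones being the Notch ligand Dll4 (1.57 ± 0.42), Unc5b (1.56 ± 0.58) and Hey1 (1.69 ± 0.68). DESeq2 called Dll4, and edgeR and limma-voom called 0 of the 9. The summed arterial markers were 565 to 671 CPM in Tie2Cre_H2Abf and 264 to 401 CPM in Tie2Cre, without overlap, and 263 to 439.5 CPM in TCRKO against 194 to 693 CPM in WT.

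Of 8 capillary markers, 1 was lower (Car4, log2 change -2.50 ± 0.76) and 1 higher (Gpihbp1, 1.12 ± 0.41) in TCRKO than in WT at an unadjusted p under 0.05. All genes gave 4.65% lower and 3.99% higher. In this comparison edgeR and limma-voom called 0 of the 8 and DESeq2 called Car4, of 172 genes called in all. In Tie2Cre_H2Abf against Tie2Cre, 2 of 8 were lower and 1 higher by the same rule, against 5.86% and 2.69% of all genes. The lower ones were Fabp4, a fatty acid carrier of capillaries (-2.73 ± 0.49), and Cd36 (-1.39 ± 0.47). The higher one was Gpihbp1 (1.05 ± 0.42). Fabp4 passed in edgeR (adjusted p = 0.0399), and DESeq2 and limma-voom called it too. The list median was -0.05 against -0.24 over all genes. The summed capillary markers overlapped in both comparisons, at 701 to 811 CPM in TCRKO, 474 to 1032 CPM in WT, 884 to 1140 CPM in Tie2Cre_H2Abf and 811 to 1128 CPM in Tie2Cre. In bulk samples, fewer cells of a type and less RNA per cell cannot be told apart, and the part of vessel type in the Selp, Sele, Ackr1 and Vcam1 levels was not tested. The summed 12 endothelial markers ran from 2839 to 4041 CPM in TCRKO, 2517 to 5743 CPM in WT, 3359 to 6352 CPM in Tie2Cre and 5182 to 7731 CPM in Tie2Cre_H2Abf. Macrophages can also carry Vcam1 and Icam1. The 10 macrophage markers summed to 274 to 697 CPM in TCRKO, 234 to 731 CPM in WT and 206 to 336 CPM in libraries labelled CD8KO. They summed to 446 to 593 CPM in libraries labelled CD4KO, 169 to 296 CPM in Tie2Cre and 89.3 to 592 CPM in Tie2Cre_H2Abf. The part of macrophages in the Vcam1 levels was not tested. Platelets also carry P-selectin, and 8 platelet markers summed to 3.79 to 19.0 CPM in TCRKO and 0 to 18.8 CPM in WT, with Treml1 at no count in either background; their part in the Selp levels was not tested.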

How the data were processed

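RNA from sorted CD31+ cells was made into cDNA by multiple-annealing amplification and Nextera XT libraries, per the labels' protocols; that kit does not mark strand. The submitters' processing notes name RSEM 1.2.28 and bcl2fastq 2.17 and, without versions, STAR and DESeq2, with genome build GRCm38. The deposited tables hold RSEM expected counts, TPM and effective lengths for each gene, as the authors made them, per the file headers. Expected counts are the estimated numbers of reads per gene; 4.45% of them are not whole (distance over 0.005), and they were rounded. TPM values were deposited already scaled by the authors. Effective length, deposited in bases, served 1 alternative.

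Identifiers were named with GENCODE vM21 symbols (46488 of 46983), and promoters come from RefSeq (GRCm38.p6). Counts were tested in edgeR 4.0.16 (TMM, filterByExpr by background, robust quasi-likelihood fits) with 1 model of 6 groups, and 1 of CD4 status, with Benjamini-Hochberg adjustment over 14875 genes at 0.05. CPM uses TMM-scaled library sizes. Alternatives used DESeq2 1.42.0, limma 3.58.1 (voom with sample weights), other scalings, filters and sets of libraries; R was 4.3.3. On simulated data for TCRKO against WT, 22% of 100 genes changed 4-fold and 89% of 100 changed 16-fold were recovered. The changed genes were drawn from those with a mean of at least 10 CPM, so these shares do not cover Sele and Alcam, which lie below it. No 2 libraries of a background agreed within sampling noise (chi-square per degree of freedom at least 16.0). The rule for named genes took the 8 members. From each of 15 lists it took at most 4 genes of smallest p with a mean of at least 10 CPM. It also took the 3 genes most like each member and, as library checks, Pecam1, Cdh5 and Ptprc. The genes that the labels name as deleted were added, as a check of the labels, and Cadm3, as the gene overlapping Ackr1. Members, lists and tests were chosen with earlier results of these data known.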

Additional observations from a re-analysis of the deposited data

Results flagged for a closer look

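Of 32 sets of log2 CPM values (members within the groups of 4 and within the groups of 10 libraries), 5 held a library far from the others; chance alone marks about 1 in 20 such sets. WT_9771 was the low one in 4 of them. Its Selp level of 5.04 stood apart from the other WT libraries, and its Cd34 level of 6.94 stood apart both in WT and among the 10 CD4-competent libraries. Its Sele level, which was no count and is written as -1.87 with a prior count of 2, stood apart among the CD4-competent libraries. This library has the lowest number of protein-coding counts of the 20 (200624) and the largest share of satellite-like counts. The fifth was the Icam2 level of 4.14 in Tie2Cre_H2Abf_9589, higher than 3 libraries that lay close together.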

How the results depend on the processing

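The edgeR tests called none of the 8 members in any of the 10 comparisons. Other settings called some in 6 of them. In TCRKO against WT the number of members called was 3 with DESeq2. It was 1 with no filter on low counts (Sele, with 31 of 33340 genes called in all). It was also 1 with a filter of 5 CPM in 10 libraries (Selp, 15 of 5765) and without the 2 satellite-rich libraries (Selp, 15 of 14770). That filter kept 6 of the 8 members. Leaving out 1 library gave 0 to 1, the 1 being Selp without WT_9771. In TCRKO against libraries labelled CD4KO it was 3 with DESeq2. In TCRKO against libraries labelled CD8KO it was 2 with DESeq2, with limma-voom and with no filter (10 of 33340 genes called in all). It was 1 with RLE factors (7 of 14875), the 5 CPM filter (8 of 5765) and without the 2 satellite-rich libraries (9 of 14770). In the difference of effects it was 1 with DESeq2 (Vcam1). In the test for any difference it was 3 with DESeq2 and 4 with no filter, which called 672 of 33340 genes. It was 1 with the 5 CPM filter (27 of 5765) and 1 without the 2 satellite-rich libraries (21 of 14770). Leaving out 1 library gave 0 to 1 (Selp, without WT_9771). In deficient against competent hosts it was 1 with limma-voom (Sele). The cause was not tested. Over all genes the tools differed more widely: edgeR, DESeq2 and limma-voom called 4, 172 and 4 genes in TCRKO against WT, 3, 53 and 8 in Tie2Cre_H2Abf against Tie2Cre, and 9, 262 and 15 for any difference.

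Some of the log2 changes given above turned sign. Scaling to endothelial markers, chosen after seeing the data, gave 0.014 for Selp in libraries labelled CD4KO against WT, 0.20 for Vcam1 in TCRKO against libraries labelled CD8KO, and -0.016 for Selp and -0.33 for Ackr1 in the difference of effects. Series 97xx alone gave -0.44 for Vcam1 by CD4 status. In TCRKO against WT, Icam2 was -0.11 with effective-length offsets and -0.10 without the 2 satellite-rich libraries, and ranged from -0.18 to 0.90 with 1 library left out. limma-voom gave -0.39 for Ackr1 in libraries labelled CD4KO against WT. Leaving out 1 library gave ranges of -0.46 to 0.15 for Selp, -0.57 to 1.03 for Ackr1 and -0.043 to 0.53 for Icam1 in libraries labelled CD4KO against WT, -0.024 to 0.79 for Selp in libraries labelled CD8KO against WT, -0.72 to 0.11 for Icam1 in Tie2Cre_H2Abf against Tie2Cre and -0.015 to 0.35 for Cd34 in TCRKO against WT. The Selp change in TCRKO against WT stayed between -2.58 and -1.93 in these fits. Changes not given above turned sign too, for example in Alcam, Icam1 and Cd34. Without the 2 satellite-rich libraries, Alcam went from -0.97 to 1.22 in TCRKO against WT and from -0.16 to 1.62 by CD4 status. Scaled to endothelial markers, the difference of effects went from 0.39 to -0.22 for Icam1 and from 0.33 to -0.59 for Cd34. Depth limits Sele and Alcam, each with 3 counts or fewer in 5 libraries. No paired analysis was possible because every library number occurs once, in 1 background only.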
